A study of Mus musculus with 12 samples.

Results

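Epithelial cells from murine small intestinal organoids cultured with Treg cells were compared with cells from the same kind of co-culture in which IFNγ and the IL-10 receptor were both blocked with antibodies. Cells were taken from 5 libraries if they carried 1 hashtag, between 10000 and 90000 UMIs (transcript molecules counted once by their molecular tag), between 3000 and 10000 genes and at most 8.5% mitochondrial UMIs. By this rule the comparison held 4117 of the 11911 cells of all groups that met the limits, of which 2097 came from the Treg co-culture and 2020 from the co-culture with both antibodies.

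The organoids came from BALB/c mice, and the T cells were allogeneic CD25high FoxP3-GFP+ Treg cells of C57BL/6 mice, added at 100000 per well with IL-2 at 30 U/mL and CD3/CD28 beads for 4 days. The plates were tilted, so that Treg cells and organoids shared medium without direct contact. In the antibody group, anti-IFNγ and anti-IL-10R were present at 10 µg/mL each from the start. Control organoids were cultured alone, and a further group received rIFNγ at 0.25 ng/mL and rIL-10 at 10 ng/mL without T cells. Live EpCAM+ cells were sorted, tagged with a hashtag for their group and pooled, with 3 replicate experiments in all (libraries B1 and B2, B3 and B4, and B5). The comparison asks how much of the epithelial response to Treg cells is lost when both signals are blocked. Since the antibodies were given together in this group, the comparison cannot tell the share of each apart. Co-cultures with anti-IFNγ alone (2120 cells) and with anti-IL-10R alone (2091 cells) were in the same libraries. They entered the fits over all groups but are not compared here.

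IFNγ binds a receptor of the chains IFNGR1 and IFNGR2, and the attached kinases JAK1 and JAK2 start a signal that induces the transcription factor IRF1. Factors of this pathway switch on 2 branches of antigen presentation: CIITA drives the MHC class II genes, while NLRC5 drives MHC class I and the immunoproteasome that cuts peptides for it. The IL-10 receptor (IL10RA and IL10RB) signals through STAT3 and induces SOCS3. In the small intestine, Lgr5+ stem cells at the crypt base feed dividing progenitors, the transit amplifying (TA) cells, which mature into absorptive enterocytes and into secretory goblet, Paneth and endocrine cells.

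The 3 replicates gave 705, 972 and 420 cells with Treg cells alone and 746, 864 and 410 cells with both antibodies. Median depth per cell lay between 42289.5 and 46263 UMIs over these 6 sets of cells, and the summed cells held 19088281 to 43040994 UMIs each. Both groups were epithelial, with 6154 to 6436 CPM (UMIs of a gene or list per 1000000 UMIs of the summed cells) from a list of epithelial markers. A list of 16 T cell genes gave 4.497 to 4.644 CPM with Treg cells, 3.393 to 5.134 with both antibodies and 4.151 to 5.195 in the control, and Cd3e, Trbc2 and Ifng had 0 UMIs in both co-cultures. Hashtag purity differed: the median share of a cell's hashtag UMIs that came from its second tag was 5.909%, 4.279% and 34.322% in the Treg group and between 19.045% and 20.879% with both antibodies. Library B5, which is replicate 3, stood apart beyond the Treg group, since the bulk of Treg, blocked and control cells there (those at or below the interferon mark defined later) carried a median of 169 to 172 UMIs of the cytokine group's hashtag, against 14 to 16 in the other replicates. In the blocked cells of B5 this exceeded their own hashtag, so their second tag was often their own. The interferon-list share, the cells above that mark and the call counts are also given without replicate 3.

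The interferon-induced genes were more abundant in the Treg co-culture than with both antibodies in every replicate. Over 91 genes of the interferon response, the share of all UMIs was 0.2604%, 0.3776% and 0.2792% with Treg cells (0.3057% ± 0.06292, SD, n = 3). With both antibodies it was 0.1918%, 0.1865% and 0.1963% (0.1916% ± 0.004915). The groups did not overlap, and the blocked co-culture lay beside the organoids cultured alone, at 0.1974%, 0.1888% and 0.1966%. Organoids given rIFNγ and rIL-10 were far above both, at 1.054%, 0.7097% and 0.9739%. The difference between the co-cultures was 0.1142 percentage points ± 0.06696 (SD of 3 differences). It gave p = 0.25 in the exact paired sign-flip test and p = 0.1 in the exact unpaired permutation test, both two-sided and each the smallest value that 3 replicates allow. The genes of MHC class I, its peptide processing and loading and of class II carried most of it, since without them the shares were 0.09537%, 0.1009% and 0.07641% against 0.074%, 0.0616% and 0.06232%, a difference of 0.02493 points that was still positive in 3 of 3 replicates. Without replicate 2 the difference over the whole list was 0.07574 and without replicate 3 it was 0.1298. It was 0.1174 over cells that passed a hashtag limit corrected for background, which was chosen after seeing the data.

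**Figure D1:**
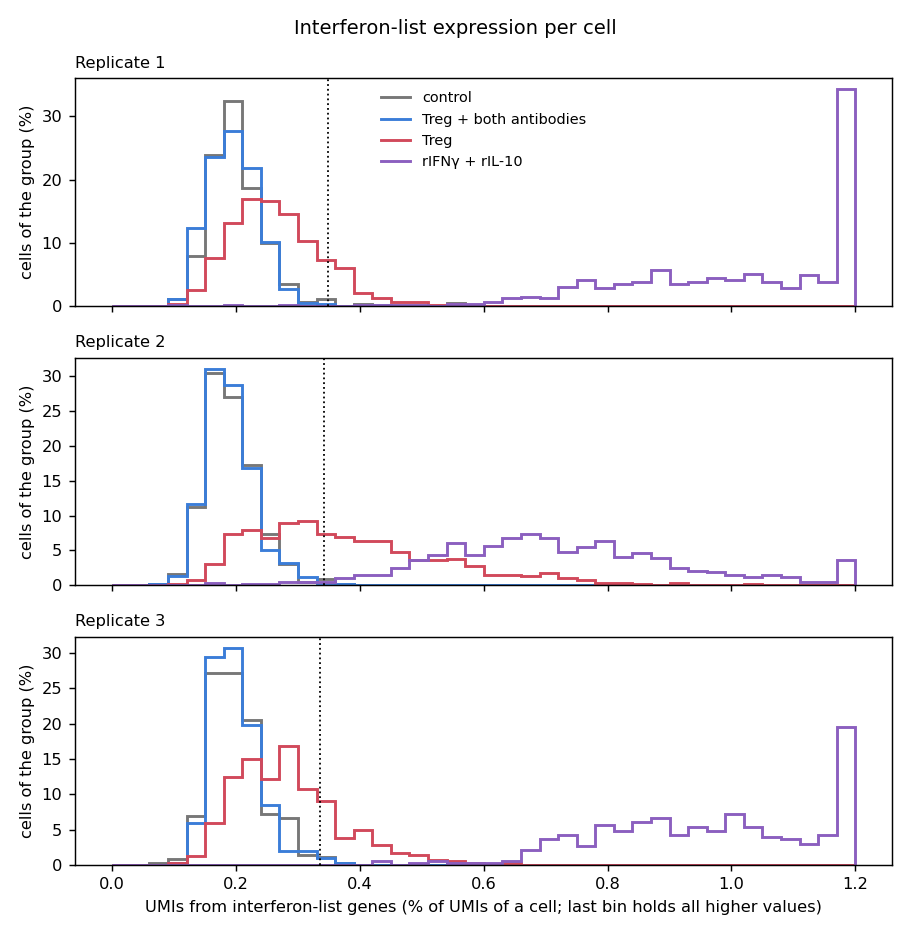
Distribution of the interferon-list share per cell (x axis, percent of the cell's UMIs, last bin for all higher values) as a percent of the cells of each group (y axis), by replicate, for control, Treg co-culture with both antibodies, Treg co-culture and rIFNγ plus rIL-10, with the 99th percentile of control cells dotted. Medians of 0.256%, 0.353% and 0.273% with Treg cells lie to the right of 0.193%, 0.185% and 0.193% with both antibodies, while the cytokine group lies apart at 1.047%, 0.701% and 0.97%.

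The difference was spread over many cells, since the median cell of every replicate was higher in the Treg co-culture. This cell held 0.256%, 0.353% and 0.273% of its UMIs in the list with Treg cells, against 0.193%, 0.185% and 0.193% with both antibodies and 0.195%, 0.187% and 0.195% in the control. The 99th percentile of control cells of the same replicate (0.348%, 0.342% and 0.336%) was used as a mark. Above it lay 100 of 705, 514 of 972 and 97 of 420 Treg co-cultured cells, or 14.18%, 52.88% and 23.1% (30.05% ± 20.26, n = 3). With both antibodies 1, 6 and 6 cells were above it (0.134%, 0.6944% and 1.463%), which is the level of the control at 1.007%, 1.08% and 1.159%, while 99.47%, 97.79% and 100% of cytokine-treated cells passed. Every Treg replicate was above every blocked replicate, with a difference of 29.29 percentage points ± 20.19 (exact sign-flip p = 0.25 and exact unpaired permutation p = 0.1, the smallest possible). The mark is a point on a continuous range, and 17.59% to 20.95% of Treg co-cultured cells were within 10% of it. Cells above the mark carried more of the Treg hashtag than the other Treg co-cultured cells (medians of 351 and 214, 454.5 and 220, and 313 and 229 UMIs) and fewer transcript UMIs (41883.5 and 47457, 41500.5 and 44219.5, and 41782 and 47192). The part of the hashtag level in the shares was not tested. With every cell thinned to 10000 UMIs the shares were 11.35%, 48.66% and 18.81% with Treg cells and 0.7212% ± 0.5482 (SD, n = 3) with both antibodies, a difference of 25.55 points. Without replicate 2, which had the largest share, the difference was 17.84 points, without replicate 3 it was 33.12, and without those class I and class II genes it was 13.55.

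For single genes the share of cells with a UMI varied with the gene and the replicate. After each cell was thinned to 10000 UMIs, Cd74, the invariant chain of MHC class II, was found in 8.23%, 56.58% and 25.95% of Treg co-cultured cells (21.28%, 73.66% and 45.24% before thinning). It was found in 2.28%, 5.44% and 3.41% of cells with both antibodies (8.31%, 18.98% and 12.68% before) and in 1.01%, 3.84% and 3.48% of control cells, which sets the background. Irf1 was found in 29.79%, 40.12% and 27.14% of cells with Treg cells and in 10.32%, 6.48% and 8.29% with both antibodies, beside 9.56%, 7.44% and 7.54% in the control (62.41%, 74.9% and 61.67%, and 28.42%, 22.11% and 26.1% in the co-cultures before thinning). For both genes the 2 co-cultures did not overlap.

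Across genes, UMIs were summed per group and replicate and tested with edgeR's quasi-likelihood test in 1 fit over all 6 groups that held the replicate as a block, and adjusted p-values (Benjamini-Hochberg) below 0.05 were called. Of 15002 genes tested, 31 (0.207%) were higher with Treg cells than with both antibodies and 0 (0%) were lower. DESeq2 called 85 higher and 23 lower, and at an unadjusted p under 0.05 the counts in edgeR were 794 and 638. Of 86 tested interferon-list genes, 15 rose, 58 were higher at unadjusted p under 0.05, and the median log2 difference was 0.87, beside 0.00 over all genes tested. In 62 of the 86 the Treg value was higher in 3 of 3 replicates, where 19.7% of all genes tested were higher in 3 of 3 and 20% were lower. The low-count filter ran over all 6 groups, so a gene absent from both co-cultures could pass through its level in the cytokine group. Without replicate 3 no gene passed (0 calls), without replicate 2 there were 7 and without replicate 1 there were 84 higher and 34 lower. Leaving the block out gave 6.

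**Figure D2:**
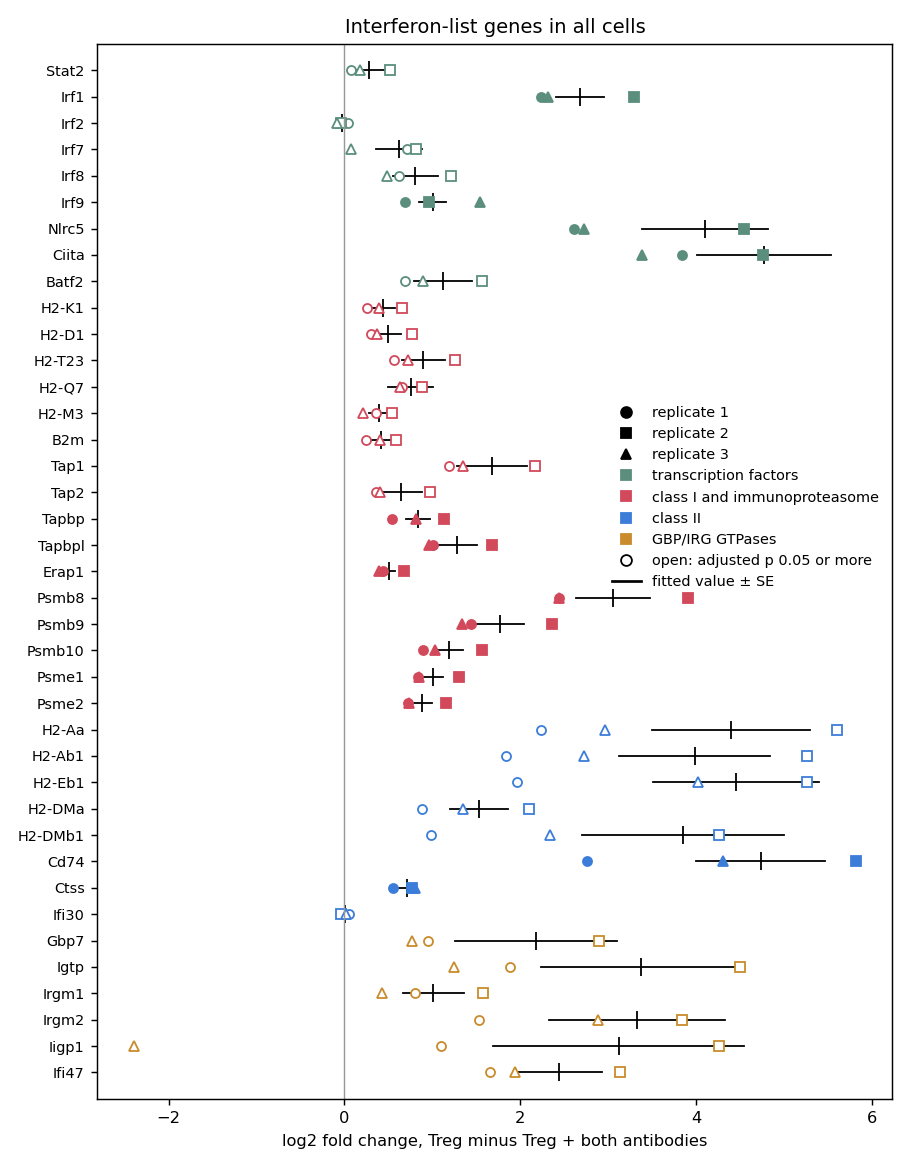
Log2 fold change, Treg co-culture minus co-culture with both antibodies (x axis), of interferon-list genes by gene group, with 1 symbol for each replicate, a black line for the fitted value ± SE and open symbols for genes with adjusted p of 0.05 or more. Irf1, Psmb8 and Cd74, at fitted values of 2.68, 3.05 and 4.73, lie to the right of 0 in every replicate, while Ifi30 lies at 0.01.

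The receptors themselves differed little between the co-cultures. Ifngr1, the ligand-binding chain, measured 110, 91.6 and 103 CPM with Treg cells, 113, 102 and 112 with both antibodies, and 108, 88.8 and 99.3 in the control (log2 difference -0.09, SE 0.06, edgeR adjusted p = 0.653). Ifngr2, the second chain, measured 71.3, 62.1 and 68.6 with Treg cells and 75.9, 68 and 70.3 with both antibodies (log2 difference -0.07, edgeR adjusted p = 0.677). Log2 differences of Jak1 and Jak2 were 0.07 and 0.16, and 0 of the 4 receptor and kinase genes passed the test. On the IL-10 side, the ligand-binding chain Il10ra had 0 UMIs in both co-cultures, so its transcript was not detectable in these epithelial cells at this depth. Its partner Il10rb, which other cytokine receptors share, measured 24.6, 26.4 and 28.2 with Treg cells and 23.3, 24.7 and 27.7 with both antibodies (log2 difference 0.08, edgeR adjusted p = 0.715). Stat3 measured 23.6, 19.6 and 12.6 against 20.4, 15.3 and 13.5, and its feedback inhibitor Socs3 had a log2 difference of 0.10 (edgeR adjusted p = 0.875). Of 9 tested genes of IL-10 receptor signalling 0 passed, with a median log2 difference of 0.13. At unadjusted p under 0.05, 2 of the 9 were higher and 0 lower, where 794 and 638 of all 15002 genes tested were. In 3 of 3 replicates 4 of the 9 were higher and 0 lower, where 19.7% and 20% of all genes tested were.

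Among the transcription factors that act after the receptor, Irf1 was at 41.4, 64.8 and 39.1 CPM with Treg cells and at 8.8, 6.61 and 7.91 with both antibodies. The groups were far apart, and the blocked values fell among the control at 9.7, 6.69 and 7.49, with 207, 116 and 150 under the cytokines. Irf1 was 6.41-fold higher with Treg cells (log2 difference 2.68, SE 0.275, edgeR adjusted p = 0.00157). Irf9, a DNA-binding factor of the type I interferon response, rose from 5.38, 3.98 and 2.72 to 8.6, 7.71 and 7.91 (log2 difference 1.00, SE 0.15, edgeR adjusted p = 0.0132). Both class-specific coactivators were nearly absent with both antibodies. Ciita had 45, 323 and 43 UMIs in the Treg co-culture and 1, 8 and 3 with both antibodies (log2 difference 4.77, SE 0.76, edgeR adjusted p = 0.0168). Nlrc5 had 41, 143 and 20 UMIs against 5, 3 and 2 (log2 difference 4.10, SE 0.72, edgeR adjusted p = 0.0309). With so few UMIs in the blocked group the size of both folds is loosely set, while the order of the groups was the same in every replicate. In all, 4 of 10 genes of the list of transcription factors and coactivators rose (Irf1, Irf9, Ciita and Nlrc5) and 8 were higher at unadjusted p under 0.05.

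GAS and ISRE are sequence elements of interferon-induced genes, the latter bound by IRF proteins, and the promoters of the genes that rose were read for both. The letters searched were TTCNNNGAA for GAS and GAAANNGAAA for ISRE, on both strands, in the 300 bases around each gene's start (250 before, 50 after) that RefSeq gives for GRCm38.p6. Of the 31 genes that rose, 23 had such a window, and 10 (43.5%) held either motif, 6 (26.1%) GAS and 7 (30.4%) ISRE. Over all 32851 windows the shares were 11.3%, 8.3% and 3.44%, and over the windows of the genes tested 11.5%, 8.35% and 3.71%. A match describes letters and is not evidence of binding. The 180 bases from 150 before to 30 after the start are shown for a transcription factor, a peptide trimmer and 2 proteasome subunits that rose, all on the plus strand, with the motif in capitals (GAS in Irf1 at chr11:53769864-53770043 and in Psmb8 at chr17:34198045-34198224, ISRE in Erap1 at chr13:74639703-74639882 and in Psme1 at chr14:55578344-55578523).
Irf1: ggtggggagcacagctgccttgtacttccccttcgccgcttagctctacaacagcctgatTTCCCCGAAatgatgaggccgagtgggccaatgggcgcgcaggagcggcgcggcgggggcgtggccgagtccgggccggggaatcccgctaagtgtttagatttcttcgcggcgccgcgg
Erap1: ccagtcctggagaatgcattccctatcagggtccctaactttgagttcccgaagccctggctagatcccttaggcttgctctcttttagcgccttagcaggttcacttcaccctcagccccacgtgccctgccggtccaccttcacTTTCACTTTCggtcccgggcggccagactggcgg
Psme1: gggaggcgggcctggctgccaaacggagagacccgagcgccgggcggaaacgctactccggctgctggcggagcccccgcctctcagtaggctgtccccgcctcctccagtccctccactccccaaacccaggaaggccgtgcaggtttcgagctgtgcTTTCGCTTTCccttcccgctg
Psmb8: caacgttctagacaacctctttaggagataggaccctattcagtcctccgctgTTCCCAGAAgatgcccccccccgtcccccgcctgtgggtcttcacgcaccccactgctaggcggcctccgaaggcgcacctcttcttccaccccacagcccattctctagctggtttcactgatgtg

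Peptide processing and loading for MHC class I held the most genes that rose among the gene groups examined, 8 of 17 tested, with 16 higher at unadjusted p under 0.05 and a median log2 difference of 0.88. Psmb8, a catalytic subunit that replaces its constitutive partner in the immunoproteasome, was at 40.7, 122 and 79.8 CPM with Treg cells and at 7.5, 8.16 and 14.9 with both antibodies. The blocked values were close to the control at 10.4, 6.83 and 17.5, and the Treg values were 8.31-fold higher (log2 difference 3.05, SE 0.42, edgeR adjusted p = 0.0074). Psmb9, a second catalytic subunit, measured 50.1, 127 and 86 against 18.7, 25.1 and 34.4 (log2 difference 1.77, SE 0.27, edgeR adjusted p = 0.0132). Psmb10, the third, measured 72, 132 and 99.5 against 38.9, 45.2 and 49.5 (log2 difference 1.19, SE 0.17, edgeR adjusted p = 0.0074). All 3 replacement subunits were thus above the blocked co-culture in every replicate. Psme1, a subunit of the PA28 cap of the proteasome, was at 286, 379 and 279 with Treg cells, at 161, 155 and 157 with both antibodies and at 169, 158 and 165 in the control (2.01-fold, log2 difference 1.01, SE 0.12, edgeR adjusted p = 0.00325). Its partner Psme2, which has a near-identical copy that makes its count uncertain, had a log2 difference of 0.88 (edgeR adjusted p = 0.00437).

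The constitutive proteasome had smaller differences, with 0 of 32 genes passing and a median log2 difference of 0.07. At unadjusted p under 0.05, 9 of the 32 were higher and 0 lower, where 794 and 638 of all 15002 genes tested were. In 21 of the 32 the Treg value was higher in 3 of 3 replicates, where 19.7% of all genes tested were. Further along the class I route, Erap1, which trims peptides in the endoplasmic reticulum, measured 47.6, 38.7 and 33.8 CPM with Treg cells and 35.4, 24.5 and 26.2 with both antibodies (1.42-fold, log2 difference 0.51, SE 0.07, edgeR adjusted p = 0.0074), with groups that overlapped between replicates but not within them. Tapbpl, a peptide editor, measured 11.6, 18.7 and 11.3 against 5.81, 5.85 and 5.87 (log2 difference 1.28, SE 0.23, edgeR adjusted p = 0.0312), and tapasin (Tapbp) rose by 0.84 on the log2 scale. The transporter Tap1 measured 6.33, 15.9 and 8.78 against 2.76, 3.52 and 3.46 and did not pass (log2 difference 1.68, SE 0.40, edgeR adjusted p = 0.143). The class I chains had smaller differences. H2-K1 was at 124, 198 and 174 with Treg cells and at 105, 127 and 135 with both antibodies, with overlapping groups (log2 difference 0.44, edgeR adjusted p = 0.288), and its near-identical class I relatives make its count uncertain. B2m, the light chain, was at 276, 319 and 285 against 234, 214 and 219 (log2 difference 0.42, edgeR adjusted p = 0.377).

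The MHC class II genes had large differences and a wide spread among the Treg replicates. Cd74 was at 12.9, 280 and 64.3 CPM with Treg cells and at 1.87, 4.93 and 3.25 with both antibodies. All blocked values lay at the control level of 1.77, 5.06 and 3.39, while the cytokine group reached 1160, 1090 and 1560. The Treg values were 26.6-fold higher (log2 difference 4.73, SE 0.73, edgeR adjusted p = 0.0132). H2-Aa, a chain of the class II molecule, measured 2.82, 44.8 and 6.84 against 0.546, 0.867 and 0.838, with no overlap but no call (log2 difference 4.40, SE 0.90, edgeR adjusted p = 0.0784). H2-Ab1, the partner chain, measured 3.33, 57.9 and 9.24 against 0.891, 1.46 and 1.36 (log2 difference 3.98, SE 0.86, edgeR adjusted p = 0.0955). Ctss, the protease that degrades the invariant chain, rose from 15.3, 14.6 and 12.8 to 22.3, 24.7 and 22 (log2 difference 0.71, SE 0.11, edgeR adjusted p = 0.0132). Of 9 class II genes 2 rose, 8 were higher at unadjusted p under 0.05, and the exception was the lysosomal reductase Ifi30 at 208, 242 and 257 against 202, 251 and 257.

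The GTPases of cell-autonomous defence had higher values with Treg cells in most cases, without a call. Gbp2, a guanylate-binding protein, had 1, 9 and 1 UMIs with Treg cells and 1, 0 and 0 with both antibodies, against 433, 16 and 58 under the cytokines. The immunity-related GTPase Igtp measured 1.98, 12.9 and 2.04 CPM against 0.489, 0.515 and 0.838 (log2 difference 3.37, SE 1.14, edgeR adjusted p = 0.352). Of 16 genes of these GTPase families 13 were tested and 0 passed. At unadjusted p under 0.05, 10 of the 13 were higher, where 794 of all 15002 genes tested were. Cd274, which encodes the checkpoint ligand PD-L1, was at 0.45, 1.3 and 0.408 against 0.316, 0.813 and 0.314 with overlapping groups (edgeR adjusted p = 0.783), and Socs1, the feedback inhibitor of JAKs, had a log2 difference of 0.67 (edgeR adjusted p = 0.717). The chemokine Cxcl10 had 13, 12 and 3 UMIs against 5, 8 and 2. Within the list of 9 chemokine and checkpoint genes tested, Lgals9, which encodes a TIM-3-binding galectin, was the gene that rose, at 355, 336 and 259 CPM against 264, 204 and 211 (log2 difference 0.50, SE 0.09, edgeR adjusted p = 0.031). Its groups overlapped between replicates, and it was higher within each of 3 replicates.

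Of 28 tested genes of the type I interferon response 0 passed, with a median log2 difference of 0.62. At unadjusted p under 0.05, 15 were higher and 3 lower, where 794 and 638 of all 15002 genes tested were. In 3 of 3 replicates 17 were higher and 5 lower. Ifit2, an early target of type I interferon, was among the 3 lower genes, at 0.69, 0.395 and 0.51 CPM with Treg cells and 1.38, 0.921 and 1.26 with both antibodies (log2 difference -1.15, SE 0.31, edgeR adjusted p = 0.231). Ifitm3, a membrane protein that hinders viral entry, was outside that list and rose, from 239, 226 and 222 to 380, 458 and 427 (log2 difference 0.89, SE 0.11, edgeR adjusted p = 0.00437). The caspase Casp1 of the inflammasome measured 63.6, 74.1 and 75 against 54.6, 52.4 and 54.3 (log2 difference 0.41, SE 0.08, edgeR adjusted p = 0.039) and was the 1 gene of 18 in the cell death list to pass. The remaining genes that rose included Nmi, an interferon-induced protein (log2 difference 0.55), the dehydrogenase Adh6a (2.91, 7.71 and 8.47 against 0.489, 1 and 1.68, log2 difference 2.66, SE 0.41, edgeR adjusted p = 0.0132), Unc93b1 and Tlr3 of nucleic acid sensing, Casp12, Nubp1, Ldb3, Idnk, Shfl, Adgrd1, Tnfaip8l3, Art2b, Gm13203 and Gm12216.

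Several of the genes that rose were neighbours on the chromosome. Of 30 with a position in GRCm38.p6, 11 lay within 100 kb of another. The same count was not made over all genes tested, so whether this share is unusual was not tested. These were Psme1, Psme2 and Irf9 on chromosome 14, Psmb8 and Psmb9 on chromosome 17, Irf1 and Gm12216 on chromosome 11, Ciita and Nubp1 on chromosome 16, and Casp1 and Casp12 on chromosome 9. Nearest neighbours lay from 5.913 kb (Psme1 and Psme2) to 55.561 kb (Ciita and Nubp1) apart, and none of these genes overlapped another of them.

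Cell classes were built from control cells without the genes of the interferon list. All cells, control cells included, then took the class they correlated with best over 319 genes. Responding genes outside that list were kept. Ifitm3 and Gkn3, which differed between the co-cultures, were leading genes of a control cluster high in Olfm4 and Lgr5. The part of such genes in the class shares was not tested. Clusters were called by their markers ISC-like (stem cell markers with few genes of division), TA-like, enterocyte-like, endocrine-like or goblet/Paneth-like, and a cluster that met no markers is called Areg-led after the EGF receptor ligand amphiregulin (Areg), its second gene by fold after 2610528A11Rik. Another cluster was left unnamed and not tested (61 cells of the 2 co-cultures). The ISC-like control cluster had a mean per cell of 147.3 CPM for Lgr5 and 41.63 for Mki67. A dividing cluster had 146.18 and 251.58, and such dividing clusters high in Olfm4 fell in the TA-like class. ISC-like cells are thus the less dividing part of the cells with stem cell markers. Interferon genes were raised in each of the larger classes. Above the mark of control cells lay 13.92%, 57.78% and 28.0% of ISC-like, 9.707%, 50.09% and 15.18% of TA-like, 32.99%, 74.62% and 53.19% of enterocyte-like and 23.21%, 52.17% and 39.47% of Areg-led cells in the Treg co-culture. With both antibodies, 0 of 461, 0 of 545 and 1 of 262 TA-like cells passed, where a count of 0 allows shares of up to 0.65% and 0.55%. Among these 4 classes enterocyte-like cells had the highest background, with 1.111%, 5.195% and 5.0% above the mark with both antibodies and 3.03%, 6.78% and 8.696% in the control. With a mark drawn from control cells of the same class, the shares in the Treg co-culture were 41.77%, 76.67% and 50.0% in ISC-like cells. They were 30.7%, 71.33% and 50.19% in TA-like and 1.031%, 66.92% and 29.79% in enterocyte-like cells. This mark rested on 69, 102 and 54 control cells in ISC-like and 66, 59 and 46 in enterocyte-like cells, so the highest few of them set it. The order of the classes thus depended on the mark, and differences between the classes were not tested. In goblet/Paneth-like cells the interferon share was 0.2078%, 0.2878% and 0.2378% with Treg cells and 0.179%, 0.1886% and 0.192% with both antibodies, a smaller gap that did not overlap either. The few endocrine-like cells (5 to 19 per replicate) did not share it, at 0.2018%, 0.298% and 0.2793% against 0.2135%, 0.2201% and 0.294%.

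**Figure D3:**
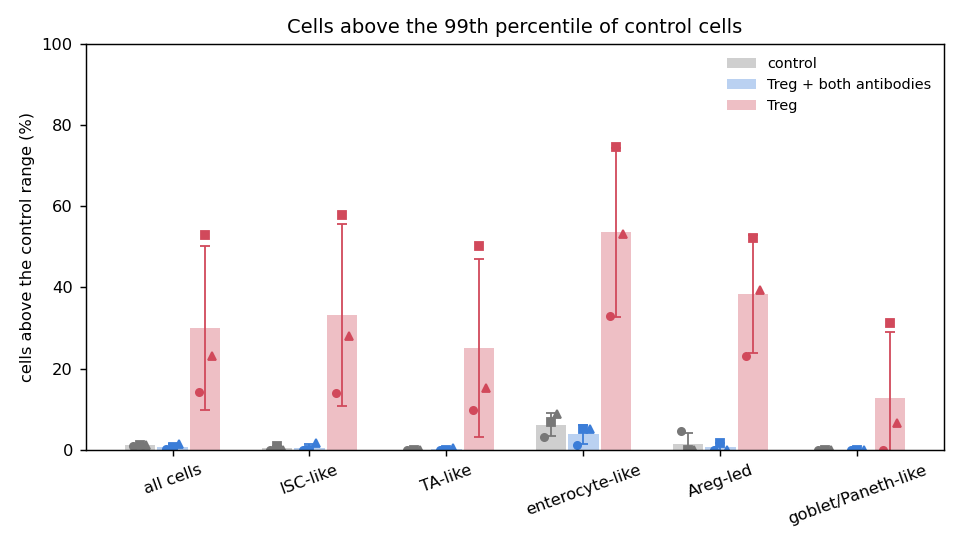
Percent of cells above the 99th percentile of control cells in the interferon-list share (y axis), by cell class, for control, Treg co-culture with both antibodies and Treg co-culture, with bars for the mean, error bars for the SD and 1 symbol for each of 3 replicates. Treg co-culture reaches 9.707% to 74.62% in ISC-like, TA-like, enterocyte-like and Areg-led cells, and co-culture with both antibodies stays at or below 5.195% in the same classes.

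In ISC-like cells, 20 of 10607 genes tested (0.189%) were higher with Treg cells and 3 (0.0283%) were lower, and 12 of 60 interferon-list genes rose. The class II genes led. Cd74 was at 37.4, 467 and 117 CPM with Treg cells and at 1.65, 4.9 and 3.98 with both antibodies (log2 difference 5.72, SE 0.69, edgeR adjusted p = 4.14e-05). H2-Aa was at 6, 76.1 and 18.6 against 0.826, 1.63 and 0.884 (log2 difference 4.81, SE 0.83, edgeR adjusted p = 0.00441). H2-Eb1 and H2-Ab1 rose by 5.08 and 4.85 on the log2 scale and Psmb8 by 2.94, all without overlap between the groups, and 5 of 9 class II genes rose in this class. The 3 lower genes were Gkn3, Tstd1 and Ccl20. Gkn3, a secreted gastrokine found in stem cells, measured 32.1, 3.74 and 19.2 with Treg cells and 57.6, 39 and 55.7 with both antibodies, beside 46.8, 33 and 53.5 in the control and 1.43, 0.471 and 3.75 under the cytokines (log2 difference -1.59, SE 0.29, edgeR adjusted p = 0.00782). Tstd1, a sulfurtransferase-like gene, measured 115, 90.1 and 129 against 142, 155 and 172 (log2 difference -0.51, SE 0.11, edgeR adjusted p = 0.0292). The chemokine Ccl20 measured 20.8, 3.12 and 11.3 against 45.2, 23.6 and 15.5, with overlapping groups (log2 difference -1.42, SE 0.30, edgeR adjusted p = 0.0365). Its control was at 31.6, 7.3 and 16.1. Without replicate 2 there were 8 higher and 1 lower calls in ISC-like cells, and without replicate 3 there were 16 and 0.

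TA-like cells, the largest class, gave 59 higher (0.427%) and 19 lower (0.137%) of 13821 genes tested. Of 80 interferon-list genes 22 rose, among them 4 of the transcription factors and coactivators, 8 of class I processing and 4 of class II. Irf1 was at 39, 64.5 and 40.5 CPM with Treg cells and at 6.9, 5.14 and 6.41 with both antibodies (log2 difference 3.00, SE 0.28, edgeR adjusted p = 4.62e-05). Cd74, H2-Aa, Psmb8 and Psmb9 rose by 4.76, 4.75, 3.10 and 1.75 on the log2 scale. Ifi47 was the 1 immunity-related GTPase to pass, and 4 type I interferon genes rose (Ifi35, Xaf1, Parp14 and Lgals3bp). In the cell death list Casp1, the necroptosis effector Mlkl and the death ligand Tnfsf10 rose, the last from 14.3, 11.5 and 13.2 to 21.9, 20.8 and 18.6 (log2 difference 0.68, SE 0.14, edgeR adjusted p = 0.0329), while Casp4 fell. Without replicate 3 TA-like cells gave 0 calls in either direction, and without replicate 2 they gave 37 higher and 12 lower.

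**Figure D4:**
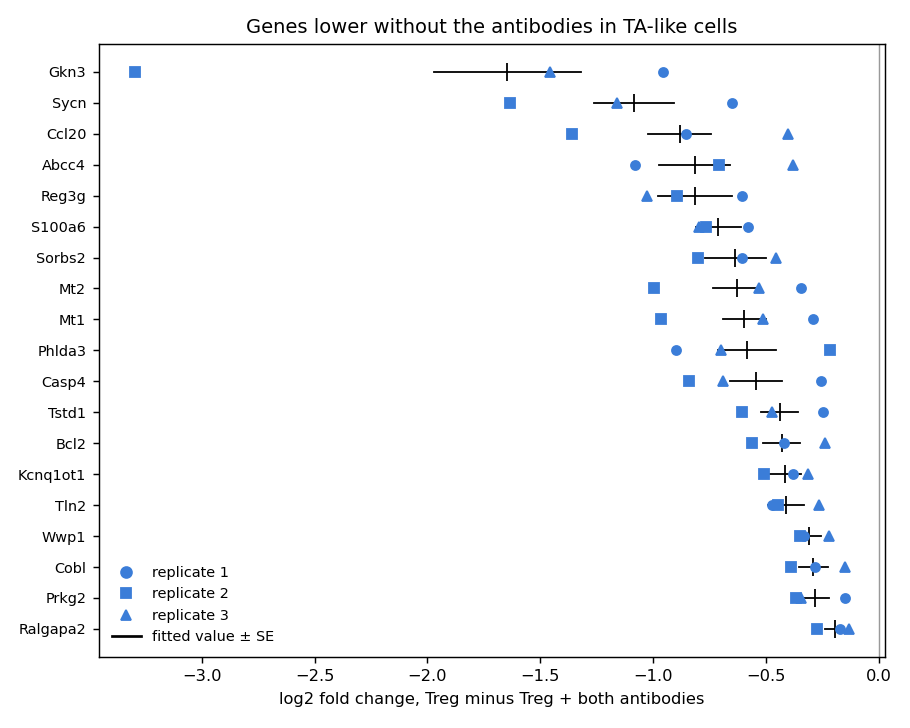
Log2 fold change, Treg co-culture minus co-culture with both antibodies (x axis), of the 19 genes that were lower in TA-like cells, with 1 symbol for each replicate and a black line for the fitted value ± SE. All symbols lie left of 0, from Gkn3 at a fitted value of -1.65 to Ralgapa2 at -0.20.

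The genes lower in TA-like cells fell into unlike patterns when set beside the control, from which differences were not tested in this class. Gkn3 was at 10.9, 1.26 and 7.97 CPM with Treg cells, at 21.4, 13.3 and 22.1 with both antibodies and at 18.8, 12.2 and 21.2 in the control (log2 difference -1.65, SE 0.33, edgeR adjusted p = 0.0251). Sycn, which encodes the secretory granule protein syncollin, was at 8.42, 2.39 and 7.75, at 13.4, 7.62 and 17.5 and at 10.7, 6.09 and 14.8 (log2 difference -1.08, SE 0.18, edgeR adjusted p = 0.00466). For both genes the blocked co-culture was at or above the control and the Treg co-culture below it, as in the cytokine group. S100a6, a calcium-binding protein, was at 19.7, 16.3 and 17.1 with Treg cells and 29.7, 27.8 and 29.9 with both antibodies, without overlap, while the control was at 20.5, 18.3 and 20.1 (log2 difference -0.71, SE 0.10, edgeR adjusted p = 0.00173). There the blocked group was the one away from the control. The antimicrobial lectin Reg3g was also nearer the control with Treg cells in replicates 1 and 3, at 32.6, 10.2 and 15.8 against 50.2, 19.1 and 32.4 with both antibodies and 29.8, 18.2 and 16.6 in the control (log2 difference -0.81, SE 0.17, edgeR adjusted p = 0.0291). The metallothionein Mt1, which binds zinc and copper, was at 4340, 3930 and 4000 against 5370, 7670 and 5750, with 5410, 5850 and 4760 in the control (log2 difference -0.60, SE 0.09, edgeR adjusted p = 0.00392). Mt2 fell with it, as did Ccl20, from 19.6, 7.08 and 9.94 to 10.7, 2.7 and 7.46 (log2 difference -0.88, SE 0.14, edgeR adjusted p = 0.00392). The control of Ccl20 was at 12.8, 3.93 and 10.6, nearer the Treg values in replicates 1 and 2. The others were the survival gene Bcl2, Casp4, Abcc4, Sorbs2, Phlda3, Tstd1, Kcnq1ot1, Tln2, Wwp1, Cobl, Prkg2 and Ralgapa2.

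In enterocyte-like cells 16 of 10036 genes tested (0.159%) were higher and 1 (0.00996%) was lower. Apol10a, an apolipoprotein L family member, was at 32, 83.7 and 19.8 CPM with Treg cells, at 6.17, 1.49 and 5.12 with both antibodies and at 23.5, 2.92 and 6.34 in the control (log2 difference 3.55, SE 0.64, edgeR adjusted p = 0.0108). Its control in replicate 1 overlapped the Treg values. Adh6a was at 17.1, 36.3 and 50.5 against 3.82, 6.72 and 12.2 (log2 difference 2.27, SE 0.30, edgeR adjusted p = 0.000554), and Psmb8 and Irf1 rose by 3.19 and 2.39 on the log2 scale. Lypd8, a surface protein that keeps bacteria from the epithelium, was at 1560, 1760 and 1600 against 1310, 1140 and 1240 (log2 difference 0.46, edgeR adjusted p = 0.00336). The lysozyme gene Lyz1, made by Paneth cells, also passed at 32, 20.2 and 35.1 against 7.93, 2.99 and 7.04 (log2 difference 2.26, SE 0.34, edgeR adjusted p = 0.00181), but 1 cell gave 85 of 114, 33 of 95 and 50 of 64 of its UMIs in the Treg replicates. The 1 lower gene was Ttr, which encodes transthyretin, at 1.4, 0.425 and 1.1 against 7.93, 3.74 and 21.1 (log2 difference -3.16, SE 0.53, edgeR adjusted p = 0.00519), where 1 cell gave 27 of 33 UMIs in replicate 3 of the blocked group. Without replicate 3 there were 0 higher calls and 1 lower.

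Areg-led cells gave 10 higher (0.101%) and 0 lower (0%) of 9883 genes tested, with 676 at unadjusted p under 0.05 in either direction. The 10 were Cd74 (log2 difference 5.66, SE 0.98, edgeR adjusted p = 0.0101), Adh6a (3.50), Psmb8 (2.94), Irf1 (2.45), Psmb9 (1.69), Psmb10, Psme1, Psme2, Lgals9 and Lypd8. Without replicate 3 there were 0 calls in this class and without replicate 2 there were 16 higher and 1 lower. In goblet/Paneth-like cells, the smallest class tested, 0 of 8163 genes were higher (0%) and 0 were lower (0%) by edgeR's adjusted test. DESeq2 also called 0 there, and 414 passed at unadjusted p under 0.05. The median log2 difference of 52 interferon-list genes in that class was 0.64, with 18 higher and 0 lower at unadjusted p under 0.05. A test of the difference in effect between enterocyte-like and TA-like cells called 0 genes higher and 1 lower (0.00786% of 12720), the endocrine gene Chgb, for which 1 cell of the blocked group gave 318 of the 323 enterocyte-like UMIs in replicate 2.

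The shares of cells assigned to each class differed by a few percentage points between the co-cultures. ISC-like cells were 11.21%, 9.259% and 11.9% of cells with Treg cells and 14.21%, 15.05% and 15.61% with both antibodies, with no overlap. The control was at 11.58%, 12.24% and 15.65% and so overlapped both, and the cytokine group was lower at 3.339%, 7.056% and 7.207%. The difference was -4.165 percentage points ± 1.448 (SD, n = 3, exact sign-flip p = 0.25 and exact unpaired permutation p = 0.1, the smallest possible). Areg-led cells were 7.943%, 9.465% and 9.048% against 6.568%, 6.713% and 4.39%, also without overlap, and 7.383%, 8.643% and 7.536% in the control (2.928 points ± 1.648, exact unpaired permutation p = 0.1). Enterocyte-like cells were 13.76%, 13.37% and 11.19% against 12.06%, 8.912% and 9.756%, which overlapped (2.53 points ± 1.678, exact unpaired permutation p = 0.2). TA-like cells were 62.84%, 58.13% and 61.19% against 61.8%, 63.08% and 63.9% (-2.207 points ± 3.028, exact unpaired permutation p = 0.2). Within them, clusters high in the stem cell gene Olfm4 were 36.31%, 29.12% and 29.05% against 39.14%, 38.89% and 35.61%, and those low in it were 26.52%, 29.01% and 32.14% against 22.65%, 24.19% and 28.29%. Goblet/Paneth-like cells at 2.411%, 4.938% and 3.571% against 3.619%, 3.356% and 2.439% showed no common direction. Shares are relative, so a fall of 1 class and a rise of another cannot be told apart. Nor can a change in cell numbers be told apart from a change in the genes by which cells were assigned.

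**Figure D5:**
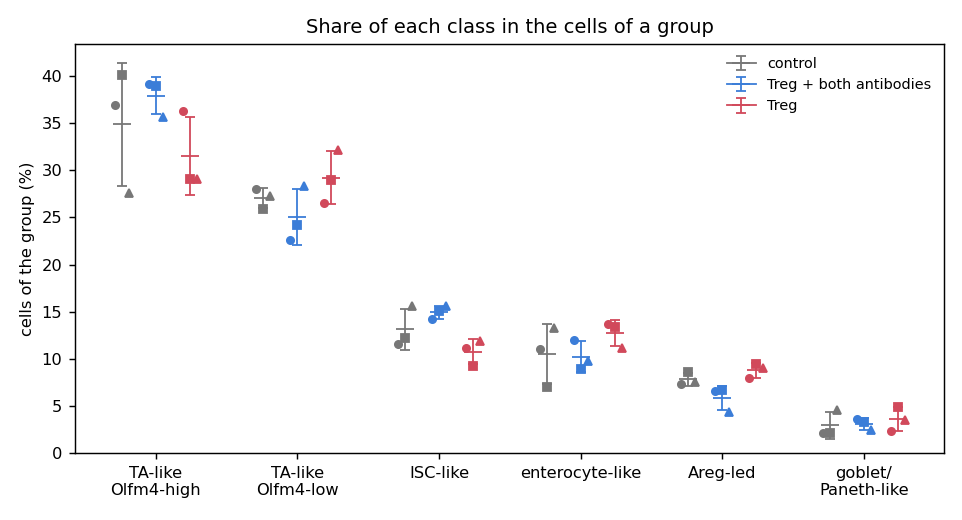
Percent of the cells of a group in each class (y axis) for control, Treg co-culture with both antibodies and Treg co-culture, with 1 symbol for each replicate and lines for the mean ± SD (n = 3). ISC-like shares of 9.259% to 11.9% with Treg cells lie below 14.21% to 15.61% with both antibodies, and the control shares run from 11.58% to 15.65%.

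Genes of stem cells had somewhat lower values with Treg cells, without a call. Olfm4 was at 959, 594 and 855 CPM with Treg cells and at 1290, 1020 and 1120 with both antibodies, without overlap, and the control was at 931, 992 and 973 (log2 difference -0.50, SE 0.21, edgeR adjusted p = 0.470). Lgr5, the receptor that marks crypt base stem cells, was at 63.8, 47.8 and 42.9 against 60.2, 72.4 and 48.1, with overlap (log2 difference -0.20, SE 0.20, edgeR adjusted p = 0.771). Of 17 stem cell genes 0 passed, 7 were lower at unadjusted p under 0.05 and 13 were lower in 3 of 3 replicates, with a median log2 difference of -0.22. Over all 15002 genes tested, 638 were lower at unadjusted p under 0.05 and 20% were lower in 3 of 3. In TA-like cells 10 of the 17 were lower at that threshold and 0 higher (median -0.21), where 823 of 13821 genes were lower. In ISC-like cells 2 of the 17 were lower and 0 higher (median -0.05), where 344 of 10607 genes were lower. Inside the ISC-like class Lgr5 was at 172, 124 and 142 against 170, 149 and 103 (log2 difference 0.03, SE 0.16, edgeR adjusted p = 0.994) and Olfm4 at 2330, 1590 and 2850 against 3100, 2180 and 2790 (log2 difference -0.28, edgeR adjusted p = 0.479). Olfm4 and Lgr5 led the control cluster by which ISC-like cells were classed, so the assignment itself bounds their level within that class. Fewer stem cells and less stem cell RNA per cell cannot be told apart in the sums over all cells. The same holds for the TA-like sums, which pool clusters high and low in Olfm4 whose shares differed between the co-cultures.

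Growth programmes were read because Treg cells and these cytokines were studied for their effect on organoid growth. Myc, a transcription factor of cell growth, was at 70.3, 73.2 and 63.8 CPM with Treg cells and at 70.5, 71.9 and 72.5 with both antibodies (log2 difference -0.04, SE 0.10, edgeR adjusted p = 0.939). Of 35 MYC target genes 0 passed in all cells, with a median log2 difference of 0.02, and 0 passed in ISC-like cells, with a median of 0.04. In TA-like cells 0 passed, and 15 of 35 were higher and 0 lower in 3 of 3 replicates, beside 2485 and 2613 of 13821 genes. The counts were 4 and 11 of 34 in enterocyte-like cells, beside 1746 and 1493 of 10036. In Areg-led cells they were 3 and 9 of 35, beside 1336 and 1357 of 9883. Of 34 tested mTORC1 target genes 0 passed in ISC-like cells, 13 were higher at unadjusted p under 0.05, and 18 were higher in 3 of 3 replicates, with a median log2 difference of 0.17 beside 0.00 over all genes tested. Over all 10607 genes tested in that class, 347 were higher at unadjusted p under 0.05 and 1433 were higher in 3 of 3. Of the same 34 mTORC1 targets, 8 were higher at unadjusted p under 0.05 in all cells, 11 in TA-like, 2 in Areg-led and 0 in enterocyte-like cells. Over all genes tested the counts were 794 of 15002, 772 of 13821, 368 of 9883 and 421 of 10036, in the same order. Differences between the classes in these counts were not tested. Outside that list, the glycolytic enzyme gene Gapdh was at 817, 1610 and 1200 in ISC-like cells with Treg cells and at 587, 1190 and 1070 with both antibodies and passed (log2 difference 0.35, edgeR adjusted p = 0.00483), as did Pkm (0.39, edgeR adjusted p = 0.0463). Pgk1, a member of the list, was at 368, 900 and 549 against 236, 599 and 488 (log2 difference 0.46, SE 0.11, edgeR adjusted p = 0.0861). The levels of both groups varied with the replicate, so that the groups overlapped while each replicate showed a higher Treg value. Gapdh, Pgk1 and Pkm were chosen for mention after their values were seen.

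Genes of dividing cells had no call and no common direction over the classes. Mki67, a marker of dividing cells, was at 244, 143 and 133 CPM with Treg cells and at 264, 166 and 161 with both antibodies (log2 difference -0.18, SE 0.10, edgeR adjusted p = 0.605). Genes of the G2 and M phases took 0.3646%, 0.3256% and 0.329% of UMIs with Treg cells and 0.3725%, 0.352% and 0.3733% with both antibodies, with the control at 0.3745%, 0.3627% and 0.3245% (difference -0.02622 points ± 0.01818, exact sign-flip p = 0.25 and exact unpaired permutation p = 0.2). In ISC-like cells the same list was higher in 3 of 3 replicates, at 0.06112%, 0.08539% and 0.06278% against 0.05503%, 0.06178% and 0.06067% (exact unpaired permutation p = 0.2), and in TA-like cells it was lower in 3 of 3, with a difference of -0.02406 points. Genes of division led several control clusters by which cells were classed, so the assignment itself bounds the level of this list within a class. In goblet/Paneth-like cells 17 of the 29 genes of the list were lower at unadjusted p under 0.05, with a median log2 difference of -0.88. Over all 8163 genes tested in that class 201 were lower at this threshold, and 0 passed after adjustment. The sums there held only 17, 48 and 15 cells with Treg cells and 27, 29 and 10 with both antibodies. Over all cells the S phase list differed by -0.003368 points ± 0.002364 (exact unpaired permutation p = 0.3). Antimicrobial genes were lower on balance without a call in all cells, with 0 of 17 passing and a median log2 difference of -0.35. Reg3b was at 14.4, 1.14 and 2.25 against 20.6, 1.27 and 14.2, and Reg3g at 54.8, 17.5 and 24.6 against 71.8, 29.1 and 40.7 (log2 differences -0.92 and -0.59, edgeR adjusted p = 0.576 and 0.462). Stress genes of cell dissociation gave 1378, 1143 and 1297 CPM against 1151, 1242 and 1190, in no common direction.

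The genes that differed between the co-cultures were set beside the response to both cytokines alone, in groups that share libraries but no cells with the comparison. All 31 genes that rose with Treg cells over both antibodies were also called higher in organoids given rIFNγ and rIL-10 than in the control, where 18.4% of all genes tested were. The cytokine calls were made over the sums of all cells, whose class shares differed under the cytokines (ISC-like cells at 3.339% to 7.207%). By these calls, 58 of the 59 genes higher in TA-like cells (98.3%) were higher under the cytokines, and 14 of the 19 lower ones (73.7%) were lower, where 17.5% of all genes tested were. A cytokine fit within TA-like cells was not made.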

How the data were processed

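Per the labels and the study's methods, the authors aligned reads to GRCm38 (mm10) with Cell Ranger 7.0.0, which the submitters' processing notes name beside Seurat 4.0.5, and deposited UMI counts per gene and hashtag for each barcode, without normalization. A key deposited with them pairs hashtags with groups. B6, which the study excluded, was not used here. Hashtags were called with HTODemux (Seurat 5.3.0, quantile 0.99), and hashtag doublets were removed with no further doublet caller. The libraries held 128917456 to 223155304 UMIs, and 0 to 5 barcodes were shared by a pair of libraries.

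The members and lists were chosen with earlier results of these data known. Control cells were clustered without the interferon-list genes (2000 variable genes, 30 components, 20 neighbours, resolution 1, giving 12 clusters). They recovered their own class in 88.8% to 90.7%. No cluster met the markers of enterocyte progenitors, and endocrine-like cells were too few to test. UMIs were summed per group and replicate and tested with edgeR 4.0.16 (TMM, filterByExpr, glmQLFTest, replicate as block, adjusted p 0.05). DESeq2 1.42.0 was an alternative. Same-numbered samples deviated together in all cells (correlations of deviations 0.413 to 0.592 within replicates), since each replicate was 1 experiment. In goblet/Paneth-like cells the lowest correlation was 0.085. The p-values of the main edgeR fits rest on the spread between 3 replicate experiments that remains after the replicate block. That spread was estimated over all 6 groups, including those not compared here. On simulated counts the test recovered 32.7%, 57.1%, 64% and 90% of genes changed 1.25, 1.5, 2 and 4-fold in the all-cell comparison. The simulation had equal folds in all replicates and no replicate effect. Real differences could vary more, as for Cd74 at log2 2.755, 5.823 and 4.303 in the 3 replicates. These shares therefore do not carry over to such genes. Genes were named if on a set list or, among those passing with 1 sign in 3 replicates and at least 5 CPM, in the first 10 per direction (5 in a class). Other names, including those given by list, were chosen after values were seen. Intervals and the limit of 3 counts at 0 cover counting error only. Positions and promoters are from RefSeq (GRCm38.p6). A gene of the set list is not reported here.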

Additional observations from a re-analysis of the deposited data

Results flagged for a closer look

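The effect of Treg cells against both antibodies differed between enterocyte-like and TA-like cells for Chgb, a granin of endocrine cells, with a log2 difference of effects of -5.41 (SE 0.933, edgeR interaction test, adjusted p = 0.0294). In enterocyte-like cells it had 0, 7 and 1 UMIs with Treg cells and 4, 323 and 0 with both antibodies, and 318 of the 323 came from 1 cell. In TA-like cells it had 13, 38 and 13 UMIs against 19, 76 and 8. The control also held 1541 UMIs in enterocyte-like cells of replicate 2. The call was lost without replicate 2, without replicate 3 and without the replicate block.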

How the results depend on the processing

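The call counts moved most. Without the replicate block, higher calls were 6 in all cells, 3 in ISC-like, 9 in TA-like, 1 in enterocyte-like and 3 in Areg-led cells, with 0 lower in ISC-like, TA-like and enterocyte-like cells and 0 in the class difference; since the numbers pair the samples, the blocked fit is the main one. The fit of only the 2 groups called 326 higher and 152 lower in all cells, among them all 31. DESeq2 called 85 and 23 in all cells, 0 lower in enterocyte-like and 16 higher in Areg-led cells, and DESeq2's size factors in edgeR 1 lower. Without a low-count filter there were 11 lower in all cells, 62 and 57 (higher and lower) in ISC-like, 333 and 250 in TA-like, 94 and 54 in enterocyte-like, 79 and 17 in Areg-led and 27 and 53 in goblet/Paneth-like cells. Leaving out 1 replicate gave 0 to 84 higher and 0 to 34 lower in all cells, 8 to 27 and 0 to 16 in ISC-like, 0 to 167 and 0 to 110 in TA-like, 0 to 28 and 1 to 8 in enterocyte-like, 0 to 16 and 0 to 1 in Areg-led, 0 to 2 higher in goblet/Paneth-like cells and 0 to 3 in the class difference. A hashtag limit corrected for background, chosen after seeing the data, gave 1 lower and 29 higher in all cells, 24 of them among the 31. The planned limit of 10% for the second hashtag left 0 Treg cells in replicate 3 and was not run. The share of goblet/Paneth-like cells changed sign without replicate 2 (-0.03778 points, range -0.03778 to 1.357). Of 568 alternative values of 63 named gene results, 453 kept sign and call, 89 lost the call, 22 gained one and 4 changed sign: Socs3 (log2 difference -0.0597 to 0.1825 when 1 replicate was left out, and -0.0251 without cells above 60000 UMIs), Myc (-0.0747 to 0.0244 when 1 replicate was left out) and Reg3b (0.27 under the corrected hashtag limit). The cause of these changes was not tested.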

Other observations

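Amphiregulin (Areg), a ligand of the EGF receptor, was at 50.2, 93.2 and 29.5 CPM with Treg cells and at 23.8, 47.4 and 21.5 with both antibodies, beside 34.4, 39.2 and 24.5 in the control and 211, 145 and 120 with rIFNγ and rIL-10. It was higher in 3 of 3 replicates with overlapping groups and did not pass (log2 difference 0.89, SE 0.30, edgeR adjusted p = 0.363). Its relative Ereg, which encodes epiregulin, had 15, 26 and 10 UMIs against 8, 4 and 2 (log2 difference 1.83, SE 0.61, edgeR adjusted p = 0.348). Clu, which marks regenerating epithelium, had 58, 10 and 13 UMIs with Treg cells against 96, 28 and 48 and was lower in 3 of 3 replicates (log2 difference -1.32, SE 0.33, edgeR adjusted p = 0.170). These genes were chosen after their values were seen.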
